A study of Mus musculus with 12 samples.

Results

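The genes of the fibrillar collagens I, III and V and of the microfibrillar collagen VI were examined. Their RNA was measured in mouse lung cells sorted as alveolar type II (ATII) cells. ATII cells are the epithelial cells that make lung surfactant and renew the alveolar lining. The 9 genes were Col1a1, Col1a2, Col3a1, Col5a1, Col5a2, Col5a3, Col6a1, Col6a2 and Col6a3. They were matched by symbol among the 23238 gene symbols of the deposited counts, and each was found. The rule used gene names only, but the members were chosen with earlier results of these data known.

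The RNA came from 12 mice, split evenly over 4 groups named Con, BLM, KO and KOBLM, with 3 mice and so 3 libraries in a group. Con mice received PBS into the trachea and BLM mice bleomycin at 4 mg/kg, a drug that injures the alveolar epithelium and is used to model lung fibrosis. KO and KOBLM mice were PBS- and bleomycin-treated mice in which p300, a histone acetyltransferase encoded by Ep300, was deleted in ATII cells through loxP sites around exon 9 and a tamoxifen-inducible Cre under the Spc (Sftpc) promoter. The cells were sorted as CD74- and EpCAM-positive. The labels give 8-week-old mice and tamoxifen at 10 mg/kg for every group. Con mice are called WT in the labels and floxed mice in the text of the study, so that it is not settled whether Con and BLM mice carried floxed alleles or Cre or were given tamoxifen.

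Fibrillar collagen chains are secreted as procollagens, trimmed at their ends, and packed side by side into the banded fibrils that give tissue its tensile strength. Type I collagen makes up the bulk of these fibrils, type III is mixed with it in distensible organs such as the lung, and type V starts fibril formation and limits fibril width. Type VI collagen forms beaded filaments that link cells and basement membranes to the fibrils. In the lung, fibroblasts and myofibroblasts are known as the main source of these chains, and their build-up defines fibrosis.

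With QuantSeq, reads start from the 3′ ends of poly(A) RNA, and a long transcript gives no more reads than a short one. Levels are given as CPM, counts relative to library depth, with the depth scaled by the trimmed mean of M values (TMM). Library totals ran from 7005005 to 11153154 counts. The floor of detection, set at 3 counts, lay at 0.269 to 0.428 CPM before TMM scaling, depending on the library. On the TMM scale used below it lay between 0.217 CPM (BLM 3) and 0.494 CPM (KO 2). Intervals and floors cover counting error alone, because the reads carry no molecular identifiers and PCR copies are counted. Genes were compared with edgeR's quasi-likelihood test over 13054 genes. The standard errors (SE) given were derived from its F statistic. Called genes are those that passed the threshold used in the study, a change of more than 1.5-fold with p below 0.05 before adjustment. Where a gene is said not to be called or a call to be lost, this unadjusted threshold was not passed. By edgeR with Benjamini-Hochberg adjustment, 0 genes had an adjusted p under 0.05 in each comparison. At the unadjusted threshold edgeR called 558 genes in BLM against Con and 413 in KOBLM against BLM. With DESeq2, 114 and 78 genes also had an adjusted p under 0.05, 0 of them among the 9 collagens.

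Between 6847 and 13838 genes were detected per library. Counts of Ep300 were 1056, 1341 and 541 in Con against 1434, 1118 and 1113 in the libraries labelled KO. It had 832, 686 and 475 in BLM and 1266, 563 and 866 in those labelled KOBLM. The deleted exon lies outside the 3′ end that the kit reads, so these counts do not test the deletion and the directions given for KO and KOBLM rest on the labels. The study reports loss of p300 by qRT-PCR in isolated ATII cells and by immunofluorescence in lung, which were not re-examined here. The ATII marker Sftpc was detected in each library, at between 5 counts (KOBLM 3) and 5720 counts (Con 2). Counts of the macrophage marker Adgre1 were present in all libraries but BLM 3. In each library the 14 macrophage markers summed to more than the 12 ATII markers. The sums were 11550 to 23190 CPM against 629 to 2095 CPM in Con and 807 to 11980 against 467 to 716 in BLM. In KO they were 12500 to 36570 against 219 to 805 CPM, and in KOBLM 8897 to 21140 against 204 to 697 CPM. The values below therefore cannot be assigned to ATII cells alone. The library labelled BLM 3 stood apart, with the fewest genes detected and a summed level of 15 pluripotency genes, picked with their values already seen, of 2412 CPM against 495.5 to 852.6 CPM elsewhere. Most of the sum elsewhere was Klf4 (494.9 to 834.9 CPM), which was lowest in BLM 3 (149.6 CPM). Of the 15 genes, 12 were above the floor in BLM 3 and 2 to 7 elsewhere. For some of the results that rest on it, values without it are also given.

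The collagen genes lie on chromosomes 1, 2, 6, 9, 10 and 11 of GRCm38 (GENCODE M21). Col3a1 (chr1:45311538-45349706, plus strand, 51 exons) and Col5a2 (chr1:45374321-45503282, minus strand) are neighbours that converge, with 24614 bases between their 3′ ends. Col6a2 (chr10:76595762-76623630) and Col6a1 (chr10:76708792-76726168), both on the minus strand, are separated by 85161 bases. Col1a1 (chr11:94936224-94953042, plus strand) and Col1a2 (chr6:4504814-4541544, plus strand) encode the chains of type I collagen from different chromosomes, with 51 and 52 exons in the longest coding transcript. Col5a1 lies at chr2:27886425-28039514 on the plus strand, Col5a3 at chr9:20770050-20815067 and Col6a3 at chr1:90765923-90843971, both on the minus strand.

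The sequence 5′ of the RefSeq gene start was taken from RefSeq on GRCm38.p6, with windows of 250 bases for 7 of the 9 genes (8 windows). The Col1a2 start differs between the annotations, and its window lies inside the GENCODE gene span given above. It is shown for Col1a2 and Col3a1, the genes that passed the threshold after bleomycin, and for Col5a1, a fibrillar gene with another base composition. Each is written 5′ to 3′ on the plus strand, and the capitals mark matches, on either strand, to the GC box (GGGCGG), the TATA box (TATAAA) or the CCAAT box (CCAAT). For Col1a2, 127 bases of the window lie in exons annotated by GENCODE, and only the 123-base stretch outside them is shown.
Col3a1 (chr1:45311288-45311537): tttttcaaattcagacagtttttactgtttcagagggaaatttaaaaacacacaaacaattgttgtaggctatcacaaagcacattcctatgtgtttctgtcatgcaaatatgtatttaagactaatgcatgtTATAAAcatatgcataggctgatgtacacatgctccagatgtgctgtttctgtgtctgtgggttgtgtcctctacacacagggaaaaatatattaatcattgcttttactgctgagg
Col1a2 (chr6:4505370-4505492): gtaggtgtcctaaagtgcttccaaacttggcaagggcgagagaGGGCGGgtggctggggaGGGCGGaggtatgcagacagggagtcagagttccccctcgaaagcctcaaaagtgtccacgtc
Col5a1 (chr2:27886175-27886424): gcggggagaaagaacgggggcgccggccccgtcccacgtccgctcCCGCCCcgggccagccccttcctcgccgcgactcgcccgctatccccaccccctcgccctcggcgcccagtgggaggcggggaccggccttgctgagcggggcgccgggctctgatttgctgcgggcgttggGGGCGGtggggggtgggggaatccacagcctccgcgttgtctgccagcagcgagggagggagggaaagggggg
The printed Col3a1 sequence held the TATA box motif 117 bases upstream of the gene start and had a GC content of 35.2%, against 76.4% for Col5a1 and a median of 52.4% over the 32851 windows of all genes. The GC box was found in windows of 4 of the 7 genes (32.7% of all windows held it), the CCAAT box in 2 (33.8%) and the TATA box in 1 (12.4%). A match to TTGCNNAA, part of the motif of C/EBP transcription factors, was found in 1 (9.56%). A match describes the letters only.

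Across the 12 libraries, the chains of type I and type III collagen held most of the collagen counts. Col1a1, Col1a2 and Col3a1 together made up 75.5% to 96.2% of the summed level of the 9 genes. By group means Col1a2 was the highest in each of the 4 groups, Col1a1 the next and Col3a1 the third, and Col1a2 was the highest of the 3 in 9 of the 12 libraries. The ranges of Col1a1 and Col3a1 overlapped in each group, and Col3a1 was above Col1a1 in 8 of the 12 libraries. In the libraries Con 3, BLM 3, KO 3 and KOBLM 2, Col1a1 was above Col3a1. Each of these 4 was the library of its group with the fewest genes detected, with 10246, 6847, 8790 and 9018 genes. The part of this in the order of the chains was not tested.

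The summed level of the 9 genes was higher in each BLM library than in any other library. It was 87.3, 263 and 452 CPM in Con and 2045, 1410 and 1070 CPM in BLM. It was 33.1, 335.4 and 385.5 CPM in the libraries labelled KO and 575, 601.5 and 199 CPM in those labelled KOBLM. The sums in BLM (1508 ± 495, SD, n = 3) did not overlap those of Con (267 ± 182, SD, n = 3) or KOBLM (459 ± 225, SD, n = 3). Those of Con, KO (251 ± 191, SD, n = 3) and KOBLM overlapped. The number of collagen genes above the floor was 7 or 8 in Con, 9, 9 and 6 in BLM, 6 in each KO library and 8, 5 and 6 in KOBLM.

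**Figure D1:**
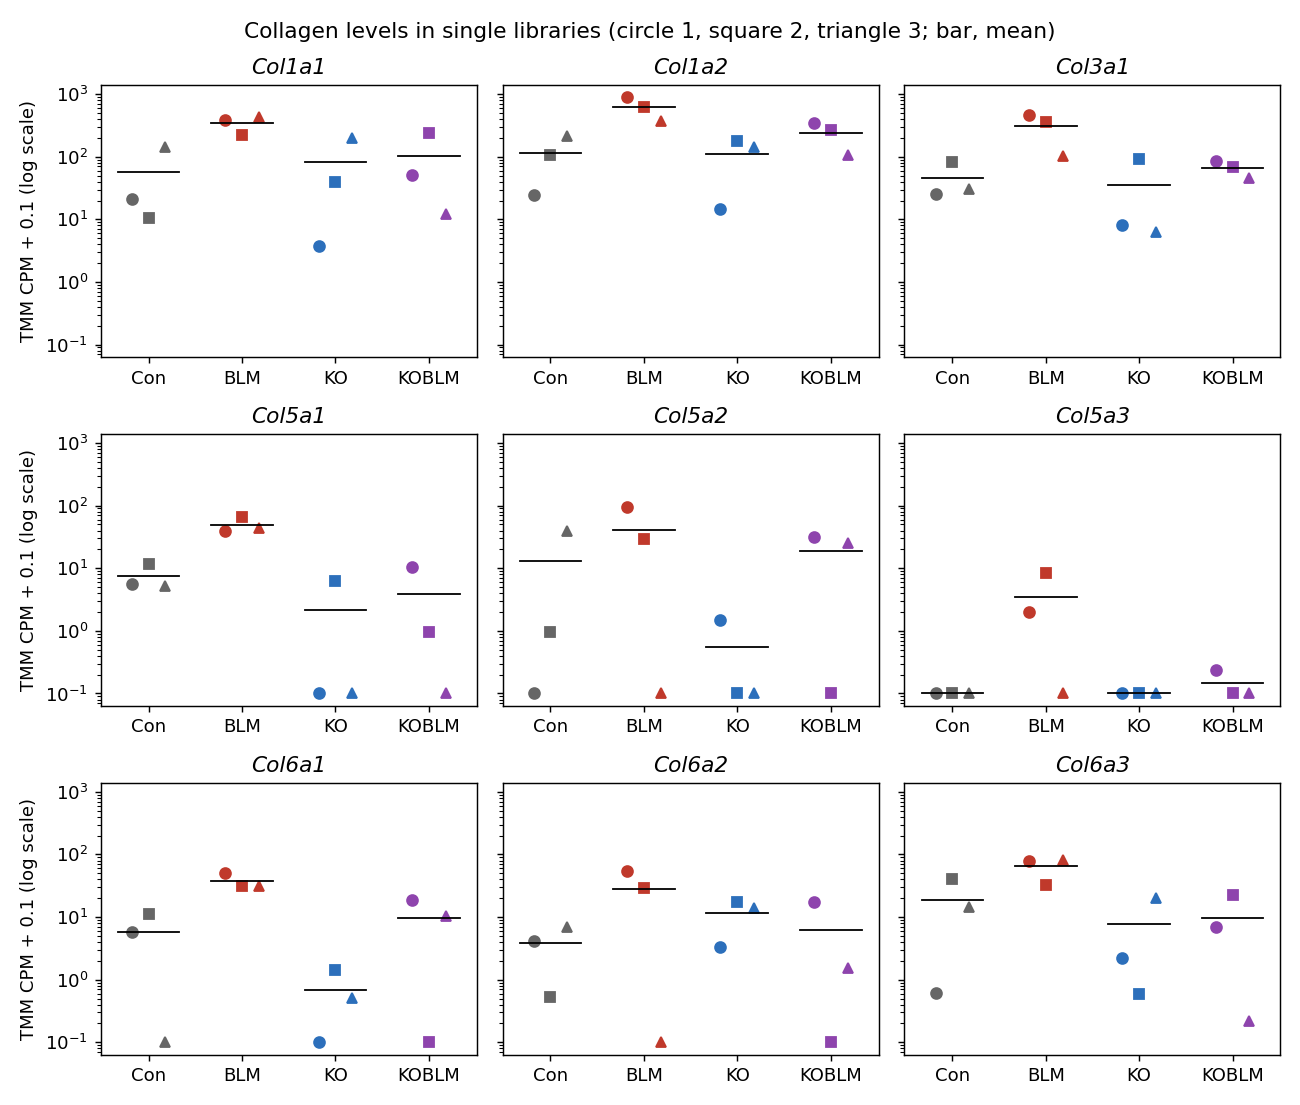
Level of each of the 9 collagen genes in single libraries (TMM CPM + 0.1, log scale) by group; points are mice and bars group means. Col1a1, Col1a2, Col3a1, Col5a1 and Col6a1 are higher in every BLM library than in any Con library, and points at the bottom of a panel are libraries with 0 counts.

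The comparison of BLM with Con asked how RNA of the sorted cells differed after bleomycin in mice not labelled as p300-deleted. Col1a2 and Col3a1 rose by a mean of 5.49-fold and 6.66-fold, and the other 6 tested collagens had means 3.12-fold (Col5a2) to 7.36-fold (Col6a2) higher in BLM that did not pass the threshold. Of the 9 genes, 8 passed the filter on low counts and 2 were called, where 4.27% of all tested genes were. All 8 fitted log2 fold changes were above 0, with a median of 2.65 against -0.08 over all genes. In 5 of the 8 each BLM library lay above each Con library, which held for 5.81% of all tested genes.

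Col1a2, the minor chain of type I collagen, stood at 24.4, 106 and 214 CPM in Con and at 891, 635 and 370.0 CPM in BLM. The groups did not overlap, and Con 1 was far below the other Con libraries. The log2 fold change was 2.46 (SE 0.893, edgeR Benjamini-Hochberg adjusted p = 0.995). Col3a1, the chain of type III collagen, had 25.6, 81.8 and 30.8 CPM in Con and 457, 358 and 104.5 CPM in BLM. The lowest BLM value, in the library labelled BLM 3, lay just above the highest of Con. Its log2 fold change was 2.73 (SE 0.998, edgeR Benjamini-Hochberg adjusted p = 0.995). Without Con 1, the call of Col1a2 was lost (log2 fold change 1.98) and so was that of Col3a1 (2.45). The Col3a1 call was also lost without Con 3 (2.51) and without BLM 1 (2.33). Without BLM 3 the values were 2.73 for Col1a2 and 3.15 for Col3a1.

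Col1a1, which encodes the major chain of type I collagen, had 21.4, 10.5 and 142 CPM in Con and 380.0, 222 and 439 CPM in BLM. Con 3 stood well above the other Con libraries and still below each BLM library. The mean was 6.0-fold higher in BLM, with a log2 fold change of 2.58 (SE 1.31, edgeR Benjamini-Hochberg adjusted p = 0.995). It was called without Con 3 (4.44), and by DESeq2 with all libraries. Without BLM 3 the log2 fold change of Col1a1 was 2.38, and it was not called.

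Of the type V chains, Col5a1 was at 5.60, 11.7 and 5.19 CPM in Con and at 39.5, 64.7 and 43.2 CPM in BLM. The groups did not overlap and the BLM values lay close together, but the test did not call the gene (log2 fold change 2.71, SE 2.26, edgeR Benjamini-Hochberg adjusted p = 1.0). For Col5a2, the usual partner of the Col5a1 chain, the Con libraries held 0, 8 and 440 counts against 643, 202 and 0 in BLM, so that the groups overlapped. Its log2 fold change was 1.64 (SE 2.65). Col5a3 had 0 counts in each Con library and 13, 57 and 0 counts in BLM. Its mean in BLM was at least 10.6-fold above the level that 3 counts per library would give in Con, and it was too low to be tested.

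The type VI chains Col6a1, Col6a2 and Col6a3 are each part of the same trimeric molecule. Col6a1 had 5.73, 11.3 and 0 CPM in Con and 50.0, 31.2 and 31.3 CPM in BLM, without overlap (log2 fold change 2.73, SE 2.32). Counts of Col6a2 were 32, 4 and 78 in Con against 378, 195 and 0 in BLM. Those of Col6a3 were 4, 371 and 166 in Con against 529, 224 and 1142 in BLM. For both, the groups overlapped. Their log2 fold changes were 2.87 (SE 2.43) and 1.80 (SE 1.75).

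Not all collagens were measured in BLM 3. This library had 6080 counts of Col1a1 and 5124 of Col1a2, and 0 counts of Col5a2, Col5a3 and Col6a2. The lists of other cell types also differed there. The 18 fibroblast markers summed to 387, 436.5 and 25.2 CPM in BLM 1, BLM 2 and BLM 3, and to 130.7 to 280.1 CPM in Con. In BLM 3, 2 of the 18 were above the floor and Pdgfra, Pdgfrb, Dcn, Lum and Tcf21, genes that define lung fibroblasts, were at 0 counts, whereas Con had 9 to 12 above the floor and BLM 1 and BLM 2 had 12 each. Of these genes, Lum was at 0 and Tcf21 at 0 in every Con and BLM library. For Dcn, a proteoglycan gene of fibroblasts, counts were 77, 463 and 348 in Con against 728, 830 and 0 in BLM. Inmt, another of the 18 markers, went the other way, with 594, 1256 and 1061 counts in Con against 292, 334 and 0 in BLM. Of the 12 fibroblast markers that were tested, 8 had log2 fold changes above 0 in BLM against Con and 4 below 0. In bulk RNA of sorted cells, a change in the number of cells of a type and a change in RNA per cell cannot be told apart.

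Some markers of other cells were also higher in BLM than in Con. Of the 18 fibroblast markers 12 were tested and 1 was called higher, where 4.27% of all tested genes were called. It was Acta2, the smooth muscle actin of myofibroblasts, at 2.04, 1.73 and 11.3 CPM in Con and 72.1, 70.9 and 5.34 CPM in BLM, so that BLM 3 lay within Con. The fitted log2 fold change was 3.29 (SE 1.48, edgeR Benjamini-Hochberg adjusted p = 0.995), a call lost without Con 1, Con 2, BLM 1 or BLM 2 and kept without BLM 3 (3.82). All 14 macrophage markers were tested, and 3 were called higher and 3 lower. The higher ones, C1qa, C1qb and C1qc, encode the chains of complement C1q. C1qa was at 10.2, 23.6 and 0 CPM in Con and at 969.6, 1063 and 13.1 CPM in BLM, where BLM 1 and BLM 2 were far above BLM 3. The log2 fold changes were 5.92 for C1qa, 5.53 for C1qb and 6.69 for C1qc, and the calls held when each library was left out in turn. Those called lower were Itgax (-2.20), Ear2 (-2.75) and Mrc1 (-1.65), the last lost without Con 3 or BLM 1. Across all 12 libraries the 10 pericyte and smooth muscle markers summed to between 13.2 and 59.4 CPM and the 6 mesothelial markers to at most 29.6 CPM, with the mesothelial gene Msln at 0 in all libraries but BLM 1 (31 counts). The 10 endothelial markers summed to 839.9 to 1503 CPM in Con and 241.5 to 1140 CPM in BLM. The 14 macrophage markers summed to 11550 to 23190 CPM in Con and 807 to 11980 CPM in BLM, a sum that holds Chil3 at 5185 to 14110 CPM in Con and 313.6 to 4186 CPM in BLM. The 12 ATII markers ran from 629 to 2095 CPM in Con and from 467 to 716 CPM in BLM, and Sftpc, the surfactant protein C gene, went from 1735, 5720 and 1472 counts in Con to 176, 137 and 822 in BLM. Of the 12, 11 were tested and 2 were called lower, Sftpa1 and Sftpc. Of the log2 fold changes 9 were below 0 and 2 above, those of Napsa (1.16) and Etv5 (2.42), neither called. The sum of BLM 3 held Etv5 at 319.4 and Epcam at 264.7 CPM. The part of these markers in the collagen values was not tested.

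**Figure D2:**
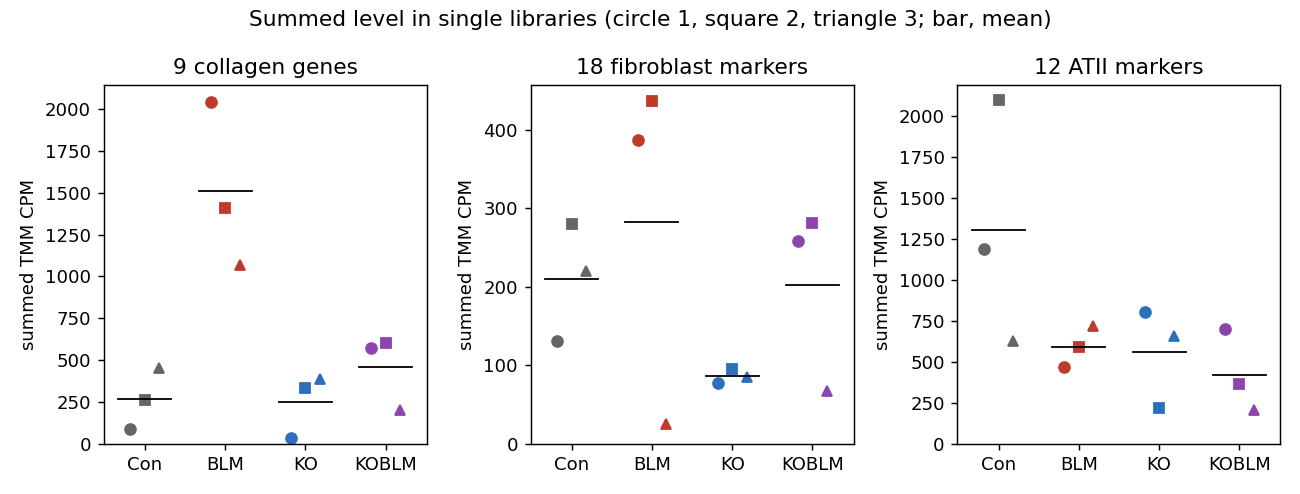
Summed TMM CPM of the 9 collagen genes, 18 fibroblast markers and 12 ATII markers in single libraries by group (linear scales from 0; bars are means). The collagen sum of each BLM library lies above all other libraries, and the fibroblast sum of BLM 3 (25.2 CPM) is the lowest of the 12.

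The comparison of KOBLM with BLM set the genotypes, as labelled, against each other under bleomycin. It also holds any difference between them without bleomycin, so the response itself is addressed by the interaction below. For Col6a1 the log2 fold change was -1.96 here, against -3.28 in KO against Con, and the interaction was 1.32. Col3a1 fell, from a mean of 307 ± 182 CPM in BLM to 67.0 ± 20.8 CPM in KOBLM (SD, n = 3 each), and the other tested collagens had means 2.18-fold (Col5a2) to 13.1-fold (Col5a1) lower in KOBLM that did not pass the threshold. Of the 8 tested genes 1 was called, where 3.16% of all tested genes were. All 8 log2 fold changes were below 0, with a median of -2.06 against 0.10 over all genes. Each KOBLM library lay below each BLM library for 5 of the 8, which held for 4.65% of all tested genes. The same BLM libraries entered this comparison and that with Con, so the sets of values are not independent.

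Col3a1 was at 86.5, 69.3 and 45.2 CPM in the libraries labelled KOBLM, all below the 104.5 to 457 CPM of BLM. Its log2 fold change was -2.19 (SE 0.977, edgeR Benjamini-Hochberg adjusted p = 1.0). The call held without BLM 3 (-2.60). It was lost without BLM 1 (-1.79), BLM 2 (-2.03), KOBLM 1 (-2.38), KOBLM 2 (-2.22) or KOBLM 3 (-1.95).

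The chains of type I collagen were not called. Col1a2 had 352, 269.5 and 105.0 CPM in KOBLM, each below the lowest BLM library (370.0 CPM), with a log2 fold change of -1.38 (SE 0.862). Col1a1 had 52.0, 239.6 and 12.3 CPM in KOBLM, and KOBLM 2 lay within the range of BLM. Its log2 fold change was -1.78 (SE 1.27), and without KOBLM 2 it was called (-3.43), in a fit in which Col3a1 was not.

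Col5a1 had 74, 9 and 0 counts in KOBLM against 271, 441 and 598 in BLM. This was the widest ratio of means among the tested collagens, 13.1-fold, with a log2 fold change of -3.71 (SE 2.36). Col5a2 had 227, 0 and 204 counts in KOBLM, within the BLM range of 0 to 643. Col5a3 had 1, 0 and 0 counts. Col6a1 with 133, 0 and 85 counts and Col6a3 with 48, 235 and 1 counts were lower in each KOBLM library than in any BLM library on the TMM CPM scale. Their log2 fold changes were -1.96 (SE 2.25) and -2.73 (SE 1.81). Col6a2 had 123, 0 and 12 counts and overlapped BLM, with a log2 fold change of -2.16 (SE 2.37). The 18 fibroblast markers summed to 259, 281 and 67.3 CPM in KOBLM, inside the range of BLM (25.2 to 436.5 CPM). With BLM 3 left out, BLM stood at 387 and 436.5 CPM, above each KOBLM library. Their part in the collagen values was not tested.

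**Figure D3:**
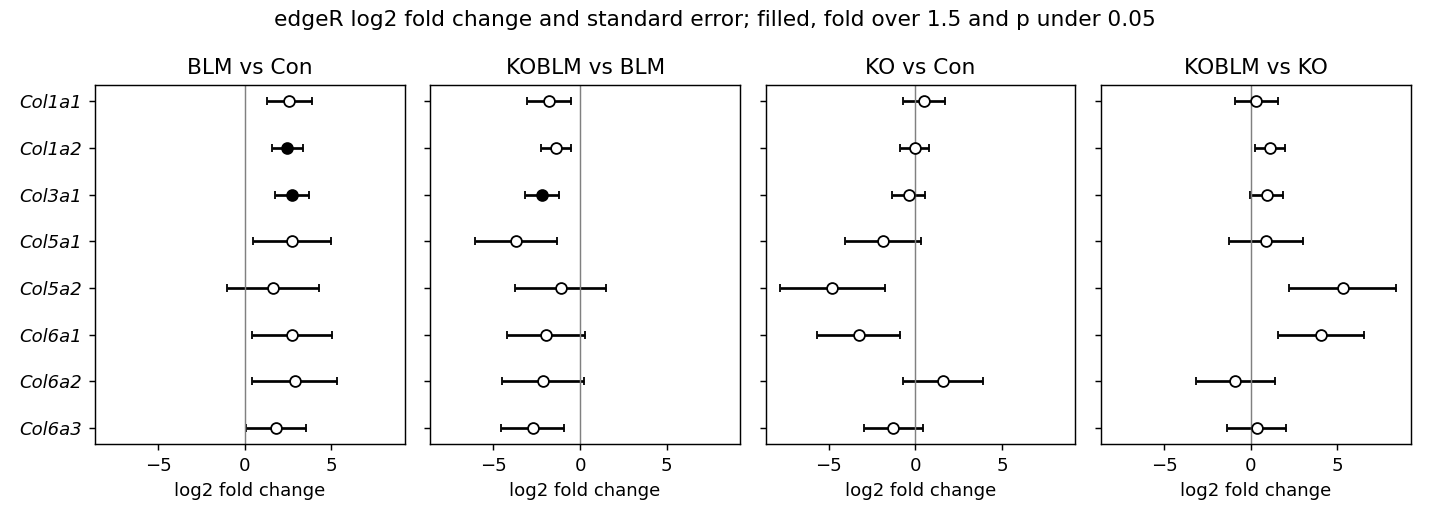
Fitted log2 fold changes (edgeR, points) of the 8 tested collagen genes in 4 comparisons, with standard errors derived from the F statistic (lines). Filled points passed the threshold of more than 1.5-fold with p below 0.05 before adjustment. All 8 points lie above 0 in BLM against Con and below 0 in KOBLM against BLM, with the narrowest errors for Col1a2 and Col3a1.

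Without bleomycin, no collagen difference between KO and Con was called. Of the 8 tested genes 0 were called and 0 had groups that did not overlap, where 1.44% of all tested genes were called and 9.09% had groups that did not overlap in either direction. Of the collagens, 0 had an unadjusted edgeR p under 0.05, and 0 were called with DESeq2. The log2 fold changes ran from -4.79 (Col5a2, SE 3.04) to 1.59 (Col6a2, SE 2.32). Their median was -0.83 against -0.09 over all genes. Col1a2 was near equal in its group means, at 115 ± 95.2 CPM in Con and 112 ± 86.5 CPM in KO (SD, n = 3 each). Its log2 fold change was -0.04 (SE 0.847). The 18 fibroblast markers summed to 77.4, 95.2 and 84.9 CPM in KO, below each Con library (130.7 to 280.1 CPM). Of the 12 tested, 1 was called lower, Dpt, with 0 counts in each KO library. The 10 endothelial markers summed to 103.5 to 737.2 CPM in KO against 839.9 to 1503 CPM in Con, with 10 log2 fold changes below 0 and 0 called. The macrophage and ATII sums overlapped. The part of these markers in the collagen values was not tested.

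Mice of the KO group differed widely from each other. Col1a1 had 34, 241 and 2425 counts in KO 1, KO 2 and KO 3, and Col1a2 had 138, 1088 and 1717. Col3a1 went another way, with 76, 554 and 75 counts. Col5a1 was at 0, 37 and 0 counts, Col5a2 at 13, 0 and 0, Col5a3 at 0 in each, Col6a1 at 0, 8 and 5, Col6a2 at 31, 105 and 165, and Col6a3 at 20, 3 and 244. KO 1 was the lowest of the KO libraries for Col1a1, Col1a2, Col6a1 and Col6a2, and KO 2 for Col6a3.

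In mice labelled as p300-deleted, bleomycin gave 0 calls among the 8 tested collagens (KOBLM against KO), where 1.69% of all tested genes were called. By DESeq2, 2 collagens passed the same threshold. For each collagen the groups overlapped, whereas 6.87% of all tested genes had groups that did not overlap in either direction. Col1a2 was at 14.6, 179 and 143 CPM in KO and 352, 269.5 and 105.0 CPM in KOBLM, a log2 fold change of 1.11 (SE 0.857). Col3a1 was at 8.06, 91.3 and 6.24 CPM in KO, with a log2 fold change of 0.93 (SE 0.944). The largest fitted values were those of Col5a2 (5.30, SE 3.11) and Col6a1 (4.05, SE 2.47), both of which rest on KO libraries at or near 0. The 2 that passed by DESeq2 were these genes.

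Whether bleomycin acted differently in the genotypes was tested by an interaction term, the log2 change in the p300-deleted groups minus that in the others. Of the 8 collagens 0 were called, where 2.82% of all tested genes were (368 genes by edgeR). By DESeq2, 0 collagens passed. The values were -1.80 for Col3a1 (SE 1.33), -1.35 for Col1a2 (SE 1.20) and -2.27 for Col1a1 (SE 1.77). That Col1a2 and Col3a1 were called in BLM against Con and not in KOBLM against KO is therefore not a difference that this test called.

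Results for Col1a1 depended on the libraries with the fewest genes detected. With only the 2 libraries of each group that had the most genes, a setting chosen after seeing the data, which leaves out Con 3, BLM 3, KO 3 and KOBLM 2, 5 collagens were called in BLM against Con (10.4% of all tested genes were). They were Col1a1 (log2 fold change 4.20), Col1a2 (3.52), Col3a1 (2.90), Col5a2 (7.03) and Col6a2 (4.17). In KOBLM against BLM, Col1a1 (-3.18) and Col3a1 (-2.59) were called, with 6.02% of all tested genes. The interaction of Col1a1 was -3.64 there, with 6.30% of all tested genes called.

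The chains of a shared molecule were not measured in a fixed ratio. Most type I collagen molecules hold more Col1a1 than Col1a2 chains. The share of Col1a1 in the counts of both genes ran from 8.98% (Con 2, 95% exact binomial interval 7.34 to 10.8) to 58.5% (KO 3, 57.0 to 60.1). It was 46.7, 8.98 and 39.8% in Con and 29.9, 25.9 and 54.3% in BLM. It was 19.8, 18.1 and 58.5% in KO and 12.9, 47.1 and 10.4% in KOBLM. The ranges of the 4 groups overlapped, and libraries of the same group differed by more than their counting intervals. The share of Col6a1 in the counts of Col6a1 and Col6a2 ran from 0% (Con 3 and KO 1) to 100% (BLM 3, from 434 counts, interval 99.2 to 100). BLM 1 stood at 47.6%, BLM 2 at 52.2% and KOBLM 1 at 52.0%. In the KO libraries it was 0, 7.08 and 2.94%. KOBLM 2 had 0 counts of both genes.

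**Figure D4:**
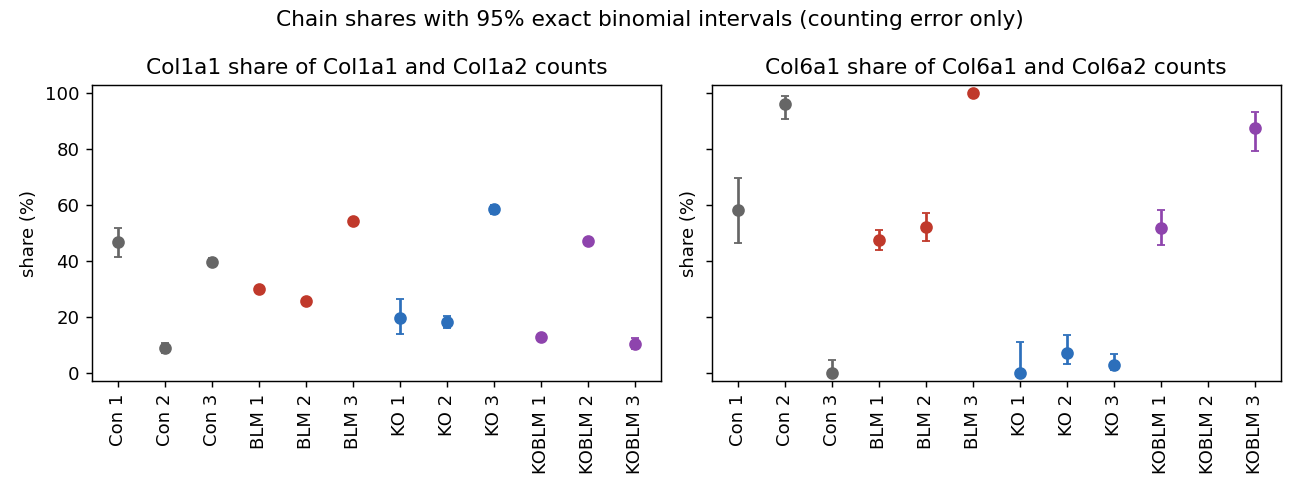
Share (percent) of Col1a1 in the counts of Col1a1 and Col1a2 and of Col6a1 in those of Col6a1 and Col6a2, per library, with 95% exact binomial intervals (counting error only). Shares differ between libraries of the same group by more than the intervals; KOBLM 2 has no Col6a1 or Col6a2 counts and no point.

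Genes of the collagen pathway outside these 9 were taken from lists by role. Over all tested genes, as above, 4.27% were called in BLM against Con, 3.16% in KOBLM against BLM, 1.44% in KO against Con and 1.69% in KOBLM against KO. Of 8 other fibrillar and type VI collagens, 2 passed the filter, and 1 was called in BLM against Con. It was Col11a1, a fibrillar chain that can assemble with type V chains. The BLM libraries held 33, 23 and 1205 counts of it and the KOBLM libraries 29, 0 and 18, with 0 in each Con and KO library. Its mean in BLM was at least 98.1-fold above the floor of Con (edgeR Benjamini-Hochberg adjusted p = 0.995), and most of that mean came from the library labelled BLM 3. Without BLM 3 it was still called, at least 12.6-fold above that floor, whereas DESeq2 did not call it. It was also called in KOBLM against KO, at least 5.88-fold above the floor, a call lost in 5 of the 6 fits that left out a library of these groups. With 0 counts in Con and KO, Col11a1 passed the low-count filter through libraries of bleomycin-treated mice alone. Its calls, also those with a library left out, are therefore not independent of the filter. Of 10 fibril-associated collagens 5 were tested, and 0 were called by edgeR at the unadjusted threshold in any of the 5 comparisons. DESeq2 called 1 of them, Col12a1, in 1 comparison, KOBLM against KO.

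Of 19 genes for procollagen modification and folding, 17 were tested and 3 were called lower in BLM than in Con, with 0 higher, against 4.27% of all tested genes called. Colgalt1, which adds galactose to hydroxylysine in collagen, fell. It had 499, 611 and 347 CPM in Con and 128, 166 and 57.6 CPM in BLM, so that the groups did not overlap. The log2 fold change was -2.05 (SE 0.487, edgeR Benjamini-Hochberg adjusted p = 0.995). In the libraries labelled KOBLM it was at 389, 478 and 408 CPM and was higher than in BLM by 1.86 (SE 0.484, edgeR Benjamini-Hochberg adjusted p = 1.0). Both calls held when each library was left out in turn. Plod3, a lysyl hydroxylase that acts on the same residues, was at 213, 188 and 193 CPM in Con and at 69.6, 75 and 86.7 CPM in BLM. It fell by 1.36 on the log2 scale (SE 0.514, edgeR Benjamini-Hochberg adjusted p = 0.995), a call lost without Con 1 (-1.30) or BLM 1 (-1.29). Colgalt2, another galactosyltransferase, was at 0 counts in each BLM library, against 98, 219 and 0 counts in Con and 121, 0 and 91 in KOBLM. It was called lower in BLM than in Con and higher in KOBLM than in BLM, each call lost in 5 of 6 fits without a library. Colgalt2 passed the low-count filter through the other groups alone, so these calls are not independent of the filter. The median log2 fold change of the 17 genes was 0.23 in BLM against Con and -0.25 in KOBLM against BLM.

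**Figure D5:**
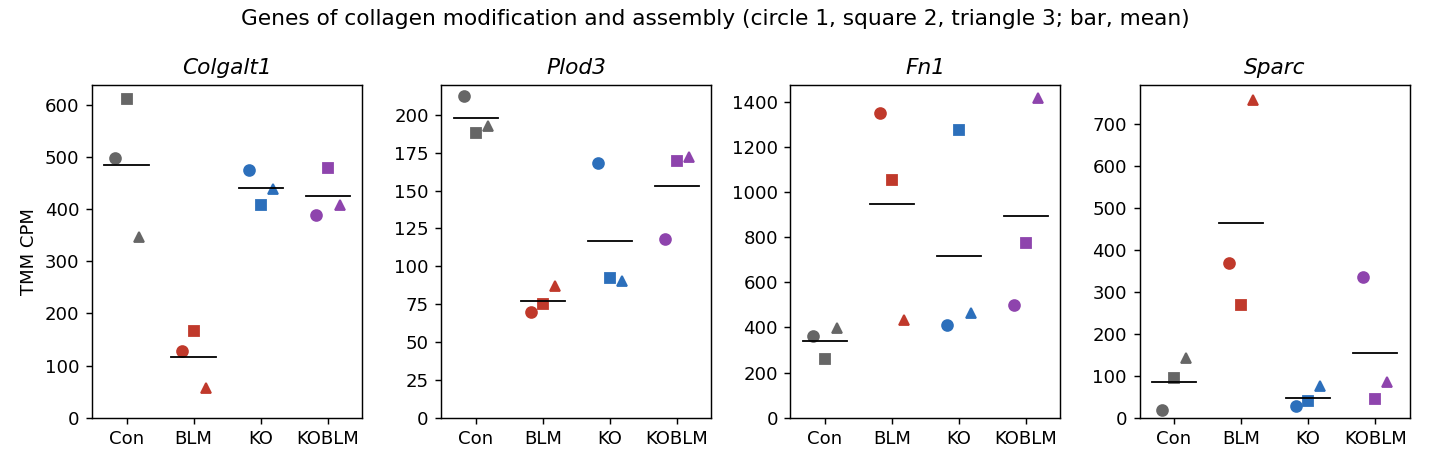
TMM CPM (linear scales from 0) of Colgalt1, Plod3, Fn1 and Sparc in single libraries by group; bars are means. Colgalt1 and Plod3 are lower in each BLM library than in any Con library, Fn1 and Sparc are higher, and Colgalt1 in KOBLM (389 to 478 CPM) lies above all of BLM.

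Of 21 genes for propeptide cleavage, cross-linking and fibril assembly, 15 were tested and 3 were called higher in BLM than in Con (4.27% of all tested genes were called), with a median log2 fold change of 1.58. Sparc, a matricellular protein that binds procollagen, had 19.2, 94.8 and 142 CPM in Con and 370, 269.5 and 757 CPM in BLM. It rose by a log2 fold change of 2.45 (SE 0.862, edgeR Benjamini-Hochberg adjusted p = 0.995). The call held when each library was left out in turn (1.91 without BLM 3). Fn1, the fibronectin gene on whose matrix collagen fibrils are laid down, had 363, 260 and 396 CPM in Con and 1351, 1055 and 433 CPM in BLM. Its log2 fold change was 1.48 (SE 0.589, edgeR Benjamini-Hochberg adjusted p = 0.995). The Fn1 call was lost in 4 of the 6 fits that left out a library, those without Con 1 (1.53), Con 2 (1.32), BLM 1 (1.13) or BLM 2 (1.36). Adamts14, a procollagen N-proteinase, was called higher in BLM than in Con from the library labelled BLM 3 alone (1243 counts), with 0 counts in the other BLM libraries and in each Con and KO library. The call was lost without BLM 3 or Con 3. It was called higher in KOBLM (27, 621 and 17 counts) than in KO, a call lost in 4 of 6 such fits. Adamts14 also passed the low-count filter through libraries of bleomycin-treated mice alone, so its calls are not independent of the filter. Adamts2, which cleaves the N-propeptides of types I and III, was at 26, 0 and 13 counts in KOBLM, below the 278, 119 and 1005 counts of BLM. It fell in KOBLM against BLM by 4.64 on the log2 scale (SE 2.08), a call lost in 5 of 6 such fits. Bgn, the small proteoglycan biglycan, was at 35, 17 and 0 counts in KO against 89, 203 and 493 in Con, a log2 fold change of -3.56 (SE 1.51), lost without Con 3 or KO 2. DESeq2 did not call Adamts14 in BLM against Con, and it called Loxl2 and Pcolce there, which edgeR did not. Without BLM 3, edgeR also called Bgn lower (-2.96) in KOBLM than in BLM, and Plod3 (1.08) and Adamts14 (10.55) higher. In that fit 3.59% of all tested genes were called. The interaction of Fn1 (-1.50) was called there too, with 3.95% of all tested genes. Of 10 collagen receptor and uptake genes 7 were tested, and 1 was called in 1 comparison, the endocytic collagen receptor Mrc2, with 0 counts in each KO library and 47, 0 and 18 in KOBLM, a call lost in 5 of 6 such fits.

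The 5 genes most like the collagens were ranked by Pearson's r of their log2 CPM with the mean of the standardised collagen log2 CPM over the 12 libraries. These libraries share groups and differ in genes detected, and r is given as a description. Mgp, an inhibitor of calcification, had an r of 0.907, and Gas6, a ligand of the TAM receptor kinases, 0.902. Thbs1, a matricellular protein that can activate latent TGF-β, had an r of 0.873. Morn3 and B230216N24Rik followed at 0.834 and 0.828, each with 0 counts in every Con and KO library and counts in BLM 1, BLM 2 and KOBLM 1 alone. Among the collagens, r with this mean, of which each is a part, ran from 0.418 (Col6a2) to 0.894 (Col1a2). Counts of Mgp were 819, 2361 and 2309 in Con against 10893, 9322 and 4626 in BLM. It had 4812, 3738 and 1533 counts in KOBLM, which overlapped both groups on the TMM CPM scale. Gas6 was at 31.3 ± 24.3 CPM in Con, 122 ± 59.2 in BLM and 55.8 ± 22.1 in KOBLM (SD, n = 3 each).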

How the data were processed

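RNA of CD74- and EpCAM-positive mouse lung cells was measured in 12 libraries made with the QuantSeq 3′ kit and sequenced from 1 end. The authors deposited raw counts per gene symbol for each library, without normalization. The submitters' processing notes name Bowtie2, edgeR and mm10, with no version, and how reads shared between genes or strands were counted is not given in the sources used here. For 35 symbols listed more than once (79 entries) counts were summed, and no collagen was among them.

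Groups and replicate numbers were taken from the labels, and each library came from 1 mouse. Genes were filtered by group with filterByExpr (minimum count 10, minimum total 15), scaled by TMM (factors 0.835 to 1.263) and fitted with edgeR 4.0.16 in 1 quasi-likelihood model of the 4 groups with 8 residual degrees of freedom. The biological coefficient of variation was 1.44 (common dispersion 2.08). The SE is the absolute log2 fold change divided by the square root of the quasi-likelihood F statistic. It is not an estimate that edgeR returns, and it is unreliable where F is near 0 or a group is at 0 counts. Tests were two-sided, and adjusted p values are Benjamini-Hochberg values over 13054 genes. The call rule (fold change over 1.5, unadjusted p under 0.05) is that of the study. The edgeR steps were run on simulated counts. Recovery of changed genes was required only at a spread set well below that of these data.

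Alternatives were DESeq2 1.42.0 or its size factors, library size alone, no low-count filter, the omission of each library in turn, a fit to the compared groups alone and a replicate block. Intervals of shares are exact binomial (Clopper-Pearson, 95%). All 9 collagens are named. Pathway genes are named where called, at most 4 per list and comparison, with the 5 genes most correlated with the collagens. The members and lists were chosen with earlier results of these data known. Gene positions are from GENCODE M21, and promoter windows from RefSeq. R 4.3.3 and Python 3.11.15 (pandas 2.3.3, scipy 1.17.1) were used.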

Additional observations from a re-analysis of the deposited data

Results flagged for a closer look

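Of 17 tested genes of procollagen modification and folding, 3 passed the unadjusted threshold in edgeR's interaction test of bleomycin between the genotypes as labelled. Over all tested genes 2.82% passed it, and 0 genes had an adjusted p under 0.05. For Colgalt1 the log2 change in the p300-deleted groups minus that in the others was 2.0 (SE 0.669, edgeR Benjamini-Hochberg adjusted p = 1.0). Colgalt1 was at 475, 408 and 439 CPM in KO and 389, 478 and 408 CPM in KOBLM. Without p300 deletion it was lower in each BLM library (57.6 to 166 CPM) than in any Con library (347 to 611 CPM). Each of the 12 fits that left out a library gave an unadjusted p under 0.05 and a value between 1.67 and 2.36. For Plod3 the difference was 1.75 (SE 0.719, edgeR Benjamini-Hochberg adjusted p = 1.0), and in 6 of the 12 fits without a library it did not pass the unadjusted threshold: without Con 1 (1.69), Con 2 (1.79), BLM 1 (1.68), KO 2 (1.62), KO 3 (1.59) or KOBLM 3 (1.68). Nor did it pass without a low-count filter (1.72) or with a replicate block (1.77). For Colgalt2 it was 10.96 (SE 5.01, edgeR Benjamini-Hochberg adjusted p = 1.0). Its size depends on the fit, since each BLM library was at 0 counts and KO held 116, 0 and 0 counts, and 9 of the 12 fits without a library did not pass. Of the 8 tested collagens, 0 were called for the interaction with all libraries by edgeR or DESeq2, and Col1a1 was called without Con 3 (-4.13) and with the 2 libraries per group with most genes (-3.64).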

How the results depend on the processing

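Signs of the collagen log2 fold changes in BLM against Con were the same under each alternative run. The 2 calls there became 3 with DESeq2 (7.25% of all tested genes were called) and 3 without a low-count filter (4.41%), Col1a1 being added in both. They became 4 in a model of only these groups (3.30% of all tested genes), with Col1a1 and Col5a1 added. With the 2 libraries per group with most genes, a setting chosen after seeing the data, they became 5 (10.4%). In KOBLM against BLM the 1 call became 2 with those libraries (6.02% of all tested genes). In KO against Con the count of 0 became 1 (4.58%), and in the interaction 1 (6.30%), with those libraries. In KOBLM against KO the count of 0 became 1 without a low-count filter (1.47%), 2 with DESeq2 (3.52%) and 2 with those libraries (4.45%). Leaving out a library in turn gave 0 to 2 calls in BLM against Con, with 0 without Con 1 and 1 without BLM 1. Of all 13054 tested genes, 294 were called without Con 1 and 477 without BLM 1. It gave 0 to 1 in KOBLM against BLM (237 to 468 of all tested genes). In KO against Con it gave 0 to 2 (2 without KO 2, where 86 genes were called). In KOBLM against KO it gave 0 to 2 (2 without KO 2, where 178 genes were called). In the interaction it gave 0 to 1 (1 without Con 3, where 293 genes were called).

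Over all tested genes, DESeq2 called 947 genes against 558 in BLM against Con, 755 against 413 in KOBLM against BLM, 374 against 188 in KO against Con, 460 against 221 in KOBLM against KO and 625 against 368 in the interaction. Without a low-count filter, 645 were called in KOBLM against BLM and 706 in the interaction, and edgeR gave 12 genes with an adjusted p under 0.05 in BLM against Con, 1 in KOBLM against BLM and 1 in the interaction. In models of only the compared groups the calls in KOBLM against BLM fell to 208. The 2 libraries per group with most genes gave 1360, 786, 598, 581 and 822 calls in the same order of comparisons, and 2 genes with an adjusted p under 0.05 in BLM against Con.

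The deviations of same-numbered libraries from their group means correlated between -0.117 and 0.096 over 18 pairs. Their median r was 0.009, against 0.002 for other pairs. With 3 widely spread libraries per group, values this near 0 cannot decide whether the libraries were paired. With the replicate number as a block, 3 collagens were called in BLM against Con (394 genes, 3.02% of all tested), with Col1a1 added, 1 in KOBLM against BLM and 0 in KO against Con, in KOBLM against KO and in the interaction. Over all genes the block left 262 calls in KOBLM against BLM, 100 in KO against Con, 100 in KOBLM against KO and 242 in the interaction.

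Directions turned mainly where a group was near 0 or the change was small. For Col1a2 in KO against Con the value was 0.0340 with DESeq2, 0.0339 with its size factors and 0.60 with the 2 libraries per group, where Col5a2 had 0.72 and an interaction of -1.80. Without a library in turn, Col5a2 ran from -1.71 to 0.35 in KOBLM against BLM (0.35 without BLM 1). In KO against Con the ranges were -1.42 to 2.36 for Col1a1, -0.51 to 0.78 for Col1a2, -2.65 to 0.32 for Col3a1, -9.92 to 0.0847 for Col5a2 and -3.79 to 0.0182 for Col6a3. In KOBLM against KO they were -1.35 to 2.23 for Col1a1, -2.17 to 8.13 for Col5a1 and -1.16 to 2.86 for Col6a3. For the interaction they were -2.51 to 0.49 for Col3a1, -4.86 to 5.44 for Col5a1, -1.21 to 8.81 for Col5a2 and -2.96 to 1.07 for Col6a3. The cause was not tested. The collagens other than Col1a1, Col1a2 and Col3a1 were each at or below 3 counts in some libraries, which limits the precision of their values.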
